A study of Mus musculus with 12 samples.

Results

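Fat cells take up fatty acids to make triglyceride and release glycerol when it is broken down. The 10 genes described here, Aqp7, Gpd1, Pck1, Cd36, Lpl, Fabp4, Fabp5, Slc27a1, Scarb1 and Acsl1, act in these movements of glycerol and fatty acids. They were chosen by name, and every probe set annotated to one of these symbols alone was taken. A probe set is the group of short probes on an Affymetrix array that reads one transcript or several related ones. This gave 25 of the 45101 probe sets, for 9 of the 10 genes and of the 18194 genes on the array, and Acsl1 was not analysed here because no probe set was annotated to it alone. For each gene the probe set with the highest mean over the 12 arrays leads. Of the 25 probe sets 18 varied enough over the arrays to be tested, as did 6 of the 9 leads. The group was drawn up with results of these data known, among them the higher Aqp7 in the knockdown and the higher Cd36 and Fabp4 with overexpression. These values, Aqp7 in the knockdown and Cd36 and Fabp4 with overexpression, are therefore given as a description with no test. They are left out of the counts of calls, save the ST2 counts over all members in the closing section. No count over the genes is read as support.

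The samples were 12 Affymetrix mouse arrays, in 4 groups of 3 biological replicates. SRA ST2 were adipocytes from ST2 cells, a mouse marrow stromal line of strain BC8, infected with the retrovirus pMSCV-SRA, and control ST2 carried the empty pMSCV vector. The shSRA 3T3-L1 were adipocytes from 3T3-L1 cells, a preadipocyte line of strain Swiss albino, with the retroviral hairpin pSuperior-shSRA against SRA, and shControl 3T3-L1 carried pSuperior-shcontrol, called an empty vector in the sample titles. SRA is the steroid receptor RNA activator, a non-coding RNA that coactivates nuclear receptors. All groups received MDIT, a cocktail of 0.5 mM methylisobutylxanthine, 1 μM dexamethasone, 0.167 μM insulin and 5 μM troglitazone, a ligand of PPARγ, and were harvested at day 4 (ST2) or day 8 (3T3-L1). Only 1 hairpin construct was put on the arrays, and both lines are established lines grown as cultures, so the replicates measure the spread between cultures.

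Aqp7 encodes aquaglyceroporin 7, the channel through which glycerol leaves adipocytes. Inside the cell, glycerol 3-phosphate for new triglyceride comes from glycolysis through Gpd1, glycerol 3-phosphate dehydrogenase, or from smaller precursors through Pck1, the cytosolic phosphoenolpyruvate carboxykinase that drives glyceroneogenesis. Lpl, lipoprotein lipase, frees fatty acids from circulating triglyceride, Cd36 and Slc27a1 (FATP1) carry them across the plasma membrane, Fabp4 and Fabp5 bind them in the cytosol, and Acsl1 activates them to acyl-CoA. Scarb1 (SR-BI) takes up cholesteryl esters from high-density lipoprotein. Several of these genes, Aqp7, Pck1, Cd36, Lpl and Fabp4 among them, are known targets of PPARγ in adipocytes.

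The windows before the gene starts are shown because PPARγ and other nuclear receptors read the half-site AGGTCA, and because Aqp7, Cd36 and Pck1 are the genes whose levels set the groups apart below. RefSeq windows of 250 bases before to 50 bases after the start (GRCm38.p6) were matched for 5 of the 10 genes, 9 windows in all, and 4 are printed. Both Aqp7 windows lie on the minus strand of chromosome 4 and share 126 bases, the Cd36 window is on the minus strand of chromosome 5 and the Pck1 window on the plus strand of chromosome 2. All run 5′ to 3′ on the strand of the gene. Capitals mark AGGTCA read on either strand (TGACCT on the printed one) in Aqp7 and Cd36, and TTACGTCA, a variant of the cyclic AMP response element, in Pck1.
Aqp7, chr4:41048087-41048386: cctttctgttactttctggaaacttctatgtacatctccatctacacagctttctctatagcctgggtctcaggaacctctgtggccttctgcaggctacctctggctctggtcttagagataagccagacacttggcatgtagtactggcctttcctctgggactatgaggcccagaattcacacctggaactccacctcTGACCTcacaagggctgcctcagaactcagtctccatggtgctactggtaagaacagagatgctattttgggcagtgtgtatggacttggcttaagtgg
Aqp7, chr4:41047913-41048212: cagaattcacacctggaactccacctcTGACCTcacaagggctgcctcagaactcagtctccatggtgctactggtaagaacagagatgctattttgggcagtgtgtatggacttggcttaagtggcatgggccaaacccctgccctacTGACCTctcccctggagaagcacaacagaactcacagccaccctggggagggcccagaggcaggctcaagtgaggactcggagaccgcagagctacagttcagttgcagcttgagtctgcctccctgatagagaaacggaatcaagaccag
Cd36, chr5:17835847-17836146: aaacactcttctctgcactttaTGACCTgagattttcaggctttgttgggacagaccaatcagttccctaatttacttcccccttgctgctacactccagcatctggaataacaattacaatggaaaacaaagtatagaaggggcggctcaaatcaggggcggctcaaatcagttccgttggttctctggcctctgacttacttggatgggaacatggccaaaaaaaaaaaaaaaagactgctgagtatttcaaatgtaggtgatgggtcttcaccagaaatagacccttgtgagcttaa
Pck1, chr2:173152823-173153122: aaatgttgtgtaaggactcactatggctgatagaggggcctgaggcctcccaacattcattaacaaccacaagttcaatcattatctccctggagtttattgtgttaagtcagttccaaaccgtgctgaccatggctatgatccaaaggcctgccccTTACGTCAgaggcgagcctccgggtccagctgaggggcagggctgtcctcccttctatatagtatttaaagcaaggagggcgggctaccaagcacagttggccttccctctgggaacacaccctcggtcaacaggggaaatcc

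The half-site occurred once in the first Aqp7 window, 49 bases before the start, and 2 times in the other, 223 and 101 bases before its start, of which the first is the same stretch of DNA. In Cd36 it lay 228 bases before the start. Of 32851 promoter windows of this length 16.3% held AGGTCA, searched on both strands. The direct repeat of this half-site with 1 base between the copies, the element that PPARγ reads with RXR, was in 0.0396% of all windows and in none of the 9. TTACGTCA stood 93 bases before the Pck1 start and was in 0.499% of all windows. The windows of Slc27a1 (3) and Acsl1 (2) held none of these motifs. A match of letters is not a bound site, and none of these arrays measured binding.

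The targeted transcript was checked first. Sra1 had log2 values of 9.46, 9.20 and 9.62 in shSRA 3T3-L1, against 11.86, 11.67 and 11.84 in shControl 3T3-L1, a log2 fold change of -2.36 (standard error, SE, 0.18, limma adjusted p = 5.58e-07). In ST2 the probe set read 11.13, 11.13 and 11.44 with SRA, against 11.14, 10.67 and 11.24 in control (log2 fold change 0.22, SE 0.18, limma adjusted p = 0.484). The study made its vector from human SRA and reported a large overexpression in ST2 cells, data it did not show. The mouse probe set did not register such a rise, so it cannot serve as a check of the introduced SRA. Of 10 adipocyte markers 7 were measured, and their mean level per array was 11.57 to 11.69 in SRA ST2, 11.00 to 11.47 in control ST2, 12.38 to 12.48 in shSRA 3T3-L1 and 12.32 to 12.45 in shControl 3T3-L1. The 10 macrophage and 8 endothelial markers, of cells that also express Cd36, Lpl, Fabp4 and Fabp5, had mean levels of 5.49 to 5.90 and 5.12 to 5.39 per array. Of these 3 and 0 varied enough to be tested, and none was called by limma in either SRA comparison. Between the controls 2 of the 3, Cd14 and Cd68, were called lower in 3T3-L1 by limma (-0.96 and -0.95). There 63.6% of all tested probe sets were called. Cd68 averaged 8.63 in SRA ST2 and 8.14 in control ST2, above the mean of its list. Pdgfra, a preadipocyte marker, was lower in SRA ST2 (-1.25, limma adjusted p = 0.000193), the 1 called of 4 such markers measured, whose mean level per array was 6.22 to 6.27 in SRA ST2 and 6.39 to 6.58 in control ST2. The array of control ST2 replicate 2 stood apart. Its bright probe sets (mean log2 value of at least 8, 14314 in all) lay at a median of -0.43 from their mean over the other arrays of its group. The other 11 arrays lay between -0.07 and 0.24 on this measure. The highest of these, 0.24 and 0.18, were control ST2 replicates 1 and 3, whose reference mean held replicate 2. The members' and pathway genes' SRA differences in ST2 are therefore also given without it.

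Aqp7 was higher in SRA ST2 than in control ST2 and also higher in shSRA than in shControl 3T3-L1. The lead probe set 1418848_at had log2 values of 9.12, 9.07 and 8.77 in SRA ST2, against 8.47, 7.86 and 8.09 in control ST2. It had 8.14, 8.23 and 8.07 in shSRA 3T3-L1, against 7.20, 7.66 and 7.10 in shControl 3T3-L1. In neither line did the arrays with altered SRA overlap those of the control. The log2 fold change was 0.85 in ST2 (1.80-fold, with a standard error of 0.19 and an adjusted p of 0.00611 from limma), and it was 0.83 in the knockdown (1.78-fold, SE 0.19). The ST2 call held without any 1 of the 12 arrays (highest limma adjusted p = 0.0414), and without control ST2 replicate 2 the log2 fold change there was 0.71.

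The second Aqp7 probe set, 1418849_x_at, may also read related sequences, as its suffix marks. It had 8.32, 7.97 and 7.78 in SRA ST2, against 7.61, 6.56 and 7.29 in control ST2, with no overlap. In 3T3-L1 it had 7.59, 7.40 and 7.28 in shSRA, against 6.08, 6.55 and 5.43 in shControl, again with no overlap. It differed by 0.87 in ST2 (SE 0.26, limma adjusted p = 0.0429), but by 0.57 without control ST2 replicate 2, and was then no longer called (limma adjusted p = 0.197). This call ended in 6 of the 12 fits that left out 1 array, those without SRA ST2 replicate 1 or 2, control ST2 replicate 2 or 3, or shSRA 3T3-L1 replicate 2 or 3. In the knockdown the difference was 1.41 (2.65-fold, SE 0.26), larger than that of the lead probe set. Same-numbered 3T3-L1 arrays deviated together, and their differences were 0.95, 0.58 and 0.97 for the lead and 1.51, 0.85 and 1.85 for the second probe set, all positive. Replicate 2 gave the smallest difference for both, and shControl replicate 2 was the highest of the 3 shControl arrays.

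**Figure D1:**
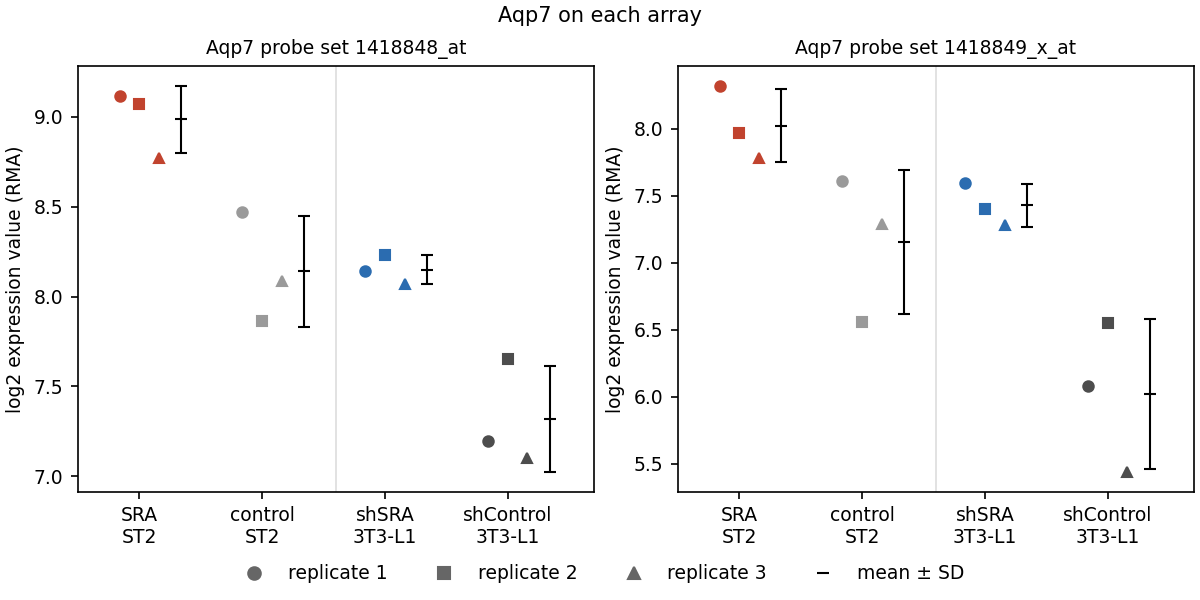
Log2 expression value of the 2 Aqp7 probe sets (vertical axis) on each of the 12 arrays by group (horizontal axis), with the symbol giving the replicate number and the bar the mean ± SD of 3 arrays. For the lead probe set, SRA ST2 averaged 8.98 and control ST2 8.14, shSRA 3T3-L1 8.15 and shControl 3T3-L1 7.32, and no array with altered SRA overlaps its control.

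Over the 4 groups the lead probe set averaged 8.98 ± 0.19 in SRA ST2, 8.14 ± 0.31 in control ST2, 8.15 ± 0.08 in shSRA 3T3-L1 and 7.32 ± 0.30 in shControl 3T3-L1 (SD, n = 3 each). SRA ST2 was the highest and shControl 3T3-L1 the lowest, while shSRA 3T3-L1 and control ST2, next to each other in this order, overlapped and differed by 0.01. The second probe set gave the same order, with a difference of 0.27 between its overlapping middle groups. The SRA effect in ST2 minus that in 3T3-L1 was 0.01 for the lead (SE 0.26) and -0.54 for the second probe set (SE 0.37).

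In the comparison of the 2 control groups, where line, strain, day, vector and growth medium differ together, Aqp7 was lower in shControl 3T3-L1 than in control ST2. The difference was -0.82 for the lead (SE 0.19, limma adjusted p = 0.000944) and -1.13 for the second probe set (SE 0.26, limma adjusted p = 0.00102). Neither probe set overlapped between the controls. Of all 19068 tested probe sets 63.6% were called between the lines, 37.4% higher and 26.2% lower in 3T3-L1, and 62.9% did not overlap. This comparison shares its control arrays with both SRA comparisons. The shControl arrays of Aqp7 and the control ST2 arrays of Cd36 and Fabp4 thus belong to the values known beforehand. The p-values of these genes between the controls are therefore not independent of the choice of genes.

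Apart from Cd36, which is given with no test, Gpd1 was the other gene called by each of its tested probe sets in ST2. It too was higher with SRA. Leaving out Cd36 and Fabp4, 3 of the 5 tested leads (Aqp7, Gpd1 and Scarb1) and 5 of the 12 tested probe sets were called, all higher in SRA ST2. Of all tested probe sets 7.98% were called, 2.33% higher and 5.65% lower. The groups did not overlap in 6 of the 12, against 24.2% of all tested probe sets. As a description, all 9 leads, Cd36 and Fabp4 included, had a median log2 fold change of 0.19. The median was 0.07 over all tested probe sets and 0.12 over the bright ones. Without control ST2 replicate 2 these medians were 0.13, 0.00 and -0.01. Without that array 3 of the 5 leads and 4 of the 12 probe sets were called, where 11.8% of all were, 2.02% higher. The mean level of the 7 adipocyte markers was also higher on every SRA ST2 array than on every control ST2 array, as given above, with a median log2 fold change of 0.41 over the markers, or 0.19 without control ST2 replicate 2. Of these 1 was called (Slc2a4, the glucose transporter GLUT4, higher by 1.08, or 1.06 without that array). The part of these markers, of Pdgfra and of the dim control array in the members' differences was not tested. In these bulk cultures, more cells that express a gene and more of its RNA per cell cannot be told apart.

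The lead Gpd1 probe set, 1448249_at, read 14.02, 14.21 and 13.93 in SRA ST2, against 13.66, 12.93 and 13.18 in control ST2. All SRA arrays lay above all control arrays, and control replicate 2 was the lowest. It was higher by 0.80 (1.74-fold, SE 0.19, limma adjusted p = 0.0112), and the second probe set, 1416204_at, by 0.86 (SE 0.20, limma adjusted p = 0.0094). Both calls ended without SRA ST2 replicate 2, the array with the highest values (limma adjusted p = 0.0803 and 0.0712), while without control ST2 replicate 2 the probe sets differed by 0.63 and 0.69 (limma adjusted p = 0.0337 and 0.0349). In 3T3-L1 the lead read 13.52, 13.81 and 13.64 in shSRA, against 13.30, 13.80 and 13.68 in shControl, values that overlapped. The difference was 0.06 there (95% interval -0.33 to 0.46). Of the other 2 probe sets, not tested, 1439396_x_at averaged 6.98 in SRA ST2 and 6.57 in control ST2 without overlap, a difference of 0.41 or 0.34 without control ST2 replicate 2, and 1456732_at stayed between 3.60 and 4.15 on all arrays.

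Pck1 differed widely between the lines, and neither of its SRA differences passed the test. Its lead, 1439617_s_at, had 5.54, 5.55 and 5.06 in SRA ST2, against 5.37, 5.71 and 5.44 in control ST2, and 10.10, 10.03 and 10.36 in shSRA 3T3-L1, against 9.72, 10.21 and 9.83 in shControl 3T3-L1. Every 3T3-L1 array lay above every ST2 array. The shControl 3T3-L1 exceeded the control ST2 by 4.41 (21.3-fold, SE 0.18, limma adjusted p = 9.38e-14) and, with 1423439_at, by 5.90 (59.5-fold, SE 0.16, limma adjusted p = 1.38e-16). The control ST2 values lay below the median of all probe sets, 6.45 to 6.51 on these arrays, so the folds are not exact ratios. In ST2 that second probe set had 4.34, 4.60 and 4.25 with SRA, against 4.22, 4.51 and 4.39 in control. The SRA differences of the lead were -0.13 in ST2 (95% interval -0.51 to 0.26, limma adjusted p = 0.716) and 0.25 in 3T3-L1 (95% interval -0.14 to 0.63). Without control ST2 replicate 2 the ST2 differences were -0.02 for the lead and 0.09 for the second probe set, whose difference was 0.02 with all arrays. The second probe set read 10.56, 10.49 and 10.57 in shSRA, against 10.13, 10.35 and 10.34 in shControl, without overlap, and its difference of 0.27 did not pass the test (limma adjusted p = 1.00, also with replicate numbers as blocks). The remaining probe set, 1455209_at, read 3.56 to 3.90 on all 12 arrays, also in 3T3-L1 where the other probe sets were high.

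Cd36, the scavenger receptor and fatty acid translocase, was higher in SRA ST2 by all 3 of its probe sets. The lead 1450883_a_at read 11.74, 11.98 and 11.73 in SRA ST2, against 11.28, 10.79 and 10.80 in control ST2. The groups did not overlap. The log2 fold changes of the 3 probe sets were 0.86, 0.84 and 1.01 (SEs 0.16, 0.16 and 0.18), a description of values known when the gene was chosen. With any 1 of the 12 arrays left out the lead differed by 0.78 to 1.02, the lowest without control ST2 replicate 2, where the other 2 probe sets differed by 0.74 and 0.82. In 3T3-L1 the lead read 13.25, 13.15 and 13.08 in shSRA, against 13.13, 13.13 and 13.03 in shControl. These overlapped, with a difference of 0.06 (95% interval -0.28 to 0.41). The shControl 3T3-L1 exceeded the control ST2 by 2.14 (4.41-fold, SE 0.16, limma adjusted p = 1.21e-09), and by 1.89 and 1.56 with the other 2 probe sets. The control ST2 arrays are part of the values known beforehand, so this p is not independent of the choice of the gene. The SRA effect in ST2 minus that in 3T3-L1 was 0.80, 0.80 and 0.95 for the 3 probe sets (SEs 0.23, 0.22 and 0.26), also with no test. For the 10 tested probe sets of Gpd1, Pck1, Slc27a1, Lpl and Scarb1, a test of this difference, added after the data were seen, was passed by 0 by limma (lowest adjusted p = 0.240), with 2 at an unadjusted p under 0.05, where 2.32% of all probe sets passed. Without control ST2 replicate 2 it was passed by 0, where 5.4% of all did.

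**Figure D2:**
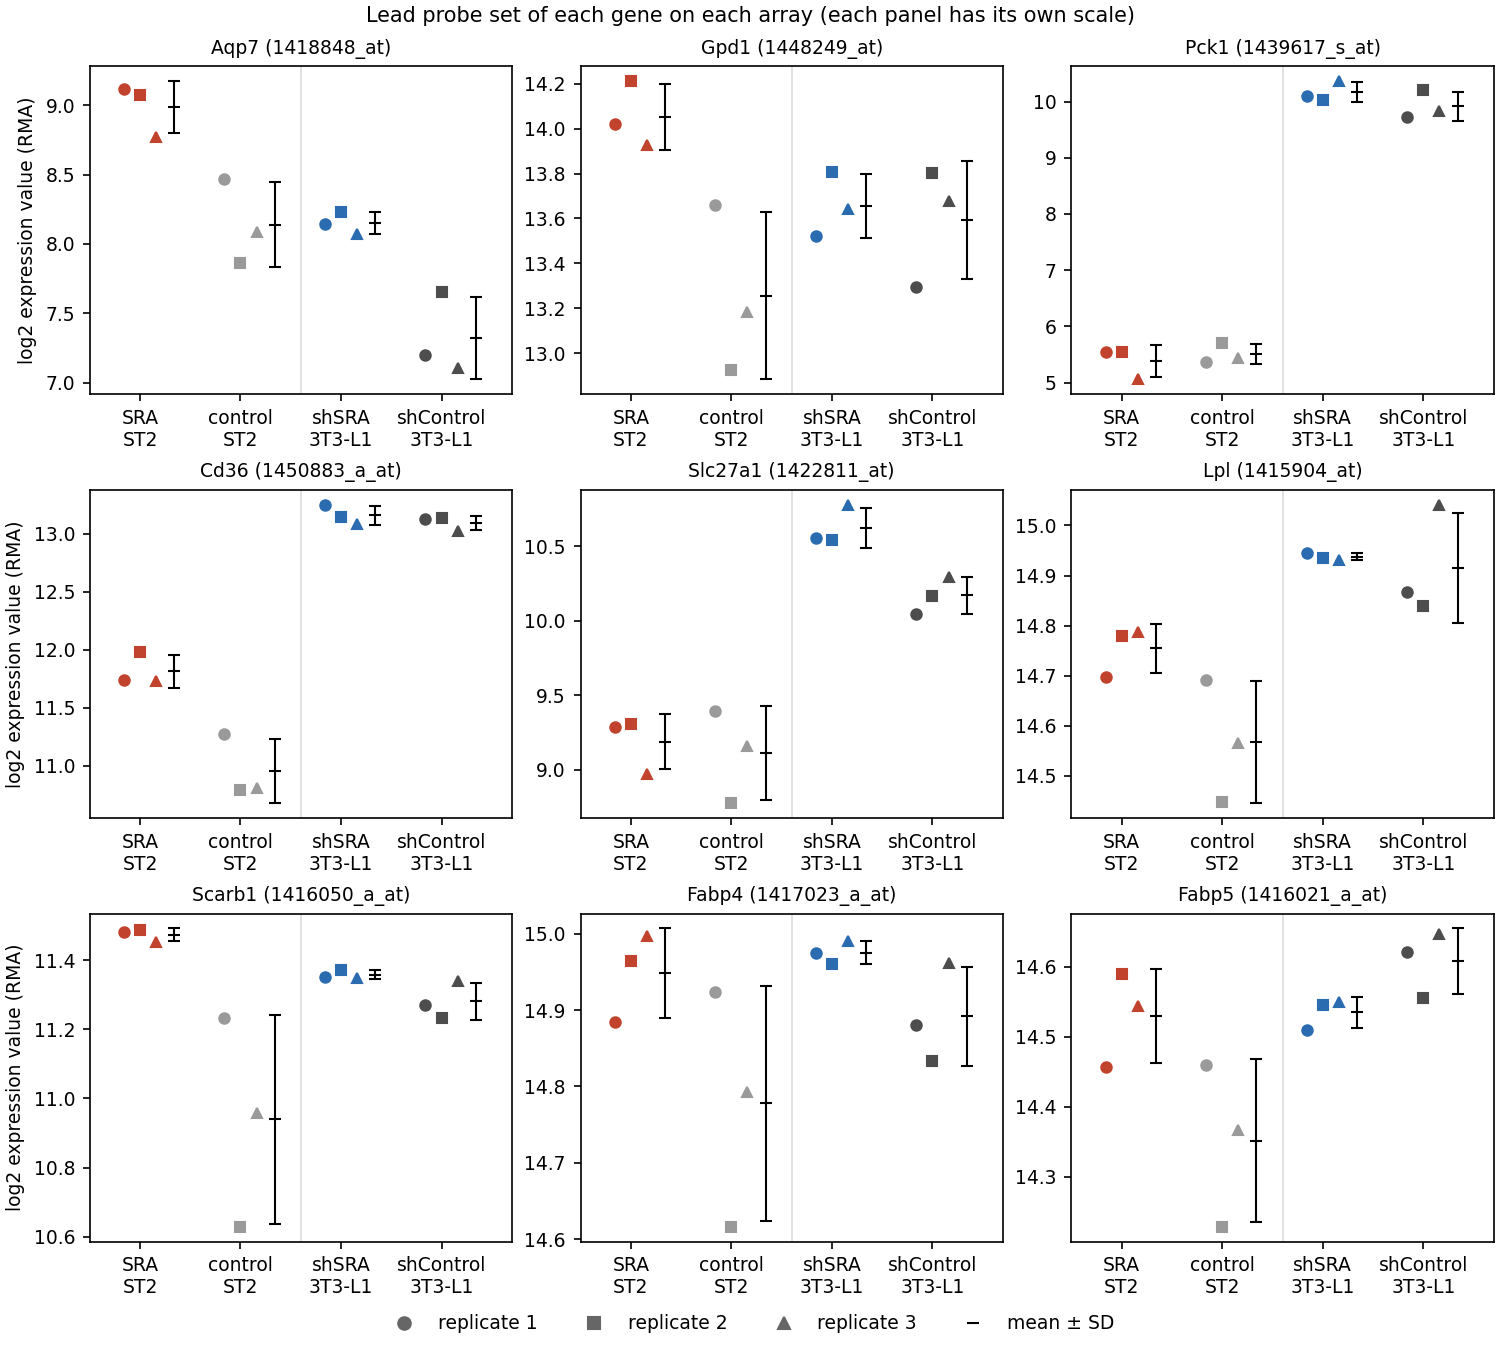
Log2 expression value (vertical axis, own scale in each panel) of the lead probe set of 9 genes on the 12 arrays by group (horizontal axis), with symbols for replicate numbers and bars for mean ± SD of 3 arrays. Aqp7, Gpd1, Cd36 and Scarb1 lie higher in SRA ST2 than in control ST2, Pck1 lies near 5 in ST2 and near 10 in 3T3-L1, and Lpl, Fabp4 and Fabp5 read between 14.23 and 15.04 on every array.

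Slc27a1, a transporter that also activates the fatty acids it imports, had the next widest difference after Aqp7 among the 9 leads in the knockdown, short of the threshold. The lead 1422811_at read 10.55, 10.54 and 10.78 in shSRA 3T3-L1, against 10.05, 10.17 and 10.29 in shControl 3T3-L1. The second probe set, 1435658_at, read 9.93, 10.28 and 10.50 in shSRA, against 9.50, 9.88 and 9.94 in shControl, and overlapped. The differences of 0.45 and 0.46 (SE 0.18 each) did not pass after adjustment over all probe sets (limma adjusted p = 1.00 for both), and their 95% intervals were 0.09 to 0.82 and 0.08 to 0.85. With the replicate numbers as blocks in both lines the limma adjusted p was 0.384 for the lead and 0.295 for the second. Same-numbered differences were 0.50, 0.37 and 0.48 for the lead and 0.43, 0.40 and 0.56 for the second. In ST2 the lead read 9.29, 9.31 and 8.97 with SRA, against 9.40, 8.78 and 9.16 in control, a difference of 0.08 (95% interval -0.29 to 0.44), or -0.09 without control ST2 replicate 2. The second probe set differed by -0.05 there, or -0.18 without that array. Between the controls the lead was higher in 3T3-L1 by 1.06 (SE 0.18, limma adjusted p = 4.21e-05), while the second differed by 0.32 and did not pass (limma adjusted p = 0.125).

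Leaving out Aqp7, 0 of the 5 tested leads and 0 of the 16 tested probe sets were called in the knockdown by limma. In simulated data the fit recovered 0% of log2 changes of 0.5 in this comparison and 82.5% of changes of 1. A probe set not called is therefore not shown to be unchanged. An unadjusted p under 0.05 was reached by 1 lead and 2 probe sets, all of Slc27a1, and by 533 of all 19068 tested. Of all tested probe sets 0.0734% were called, 0.0315% higher and 0.042% lower. The groups did not overlap in 3 of the 16, against 10.2% of all tested. The count stayed at 0 when the replicate numbers entered as blocks in both lines, where 0.53% of all tested probe sets were called, and with blocks in 3T3-L1 alone, added after the data were seen, where 0.105% were. As a description, the median log2 fold change of all 9 leads, Aqp7 included, was 0.08. It was 0.02 over all tested probe sets and 0.02 over the bright ones.

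**Figure D3:**
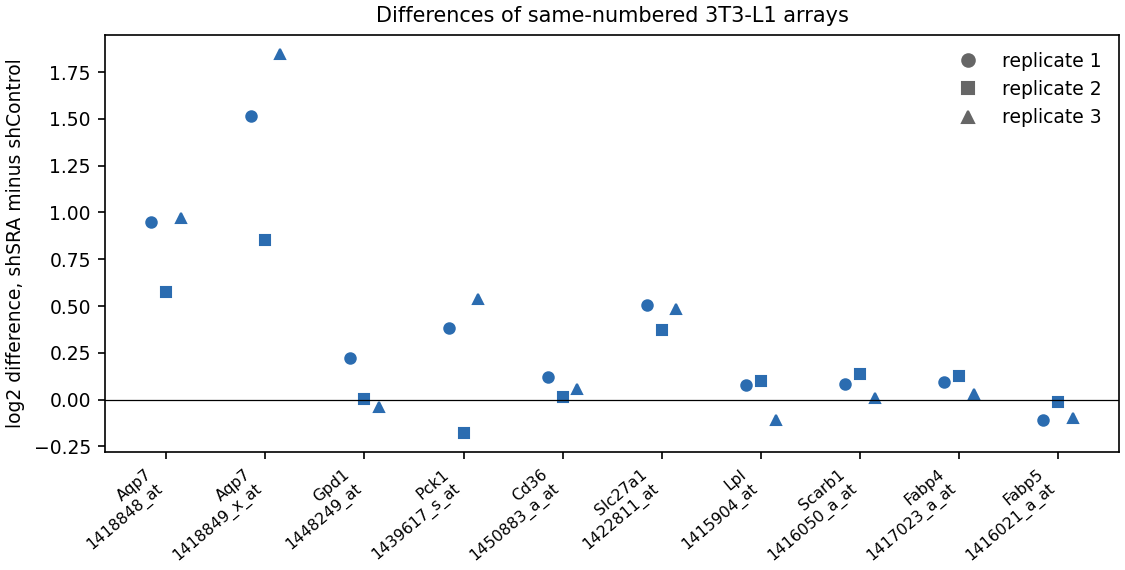
Log2 difference between the same-numbered shSRA and shControl arrays of 3T3-L1 adipocytes (vertical axis) for both Aqp7 probe sets and the leads of the other genes (horizontal axis), with 1 symbol for each replicate number and 0 as a line. The 3 Aqp7 differences lie between 0.58 and 0.97 for the lead and between 0.85 and 1.85 for the second probe set, and those of Slc27a1 between 0.37 and 0.50.

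Lpl, the lipase that feeds the transporters, was among the brightest probe sets on every array. The lead 1415904_at read 14.70, 14.78 and 14.79 in SRA ST2, against 14.69, 14.45 and 14.56 in control ST2, and 14.95, 14.94 and 14.93 in shSRA 3T3-L1, against 14.87, 14.84 and 15.04 in shControl 3T3-L1. It varied too little to be tested, and the highest value of any probe set was 14.75 to 15.14 per array, so the range left above it was small. In ST2 the difference was 0.19, without overlap, or 0.13 without control ST2 replicate 2, and it was 0.02 in the knockdown. The second probe set, 1431056_a_at, was tested and differed by 0.28 in ST2 (95% interval -0.02 to 0.59, limma adjusted p = 0.265), or 0.21 without that array. Between the controls it was higher in 3T3-L1 by 0.52 (SE 0.15, limma adjusted p = 0.00473).

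Scarb1 read 11.48, 11.49 and 11.45 in SRA ST2, against 11.23, 10.63 and 10.96 in control ST2, with its lead 1416050_a_at. The groups did not overlap, and the SRA arrays lay within 0.04 of each other while the control arrays spread over 0.60. It was higher by 0.53 (SE 0.16, limma adjusted p = 0.0461). That call ended in 10 of the 12 fits that left out 1 array (up to an adjusted p of 0.159 from limma), while without control ST2 replicate 2 the difference was 0.38 (limma adjusted p = 0.0439). The other 2 probe sets, 0.51 and 0.50 higher, did not pass (limma adjusted p = 0.106 and 0.113), and differed by 0.29 and 0.30 without that array. In 3T3-L1 the lead read 11.35, 11.37 and 11.35 in shSRA, against 11.27, 11.23 and 11.34 in shControl, without overlap, a difference of 0.08 (95% interval -0.26 to 0.41).

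Fabp4, the adipocyte fatty acid-binding protein aP2, gave different answers by probe set. The lead 1417023_a_at read 14.88, 14.96 and 15.00 in SRA ST2, against 14.92, 14.62 and 14.79 in control ST2, overlapped and was not tested. The other 3 did not overlap in ST2. Their differences are a description of values known when the gene was chosen. With 1424155_at the values were 12.22, 12.71 and 12.52 in SRA ST2, against 11.88, 11.11 and 11.72 in control ST2, a difference of 0.91 (SE 0.20). With 1425809_at they were 12.56, 12.63 and 12.73 in SRA ST2, against 12.16, 11.35 and 11.89 in control ST2, a difference of 0.84 (SE 0.22). The fourth probe set, 1451263_a_at, differed by 0.42 (SE 0.17) and the lead by 0.17. Without control ST2 replicate 2 the differences were 0.68, 0.62, 0.40 and 0.09. In 3T3-L1 the lead read 14.98, 14.96 and 14.99 in shSRA, against 14.88, 14.83 and 14.96 in shControl. The 4 probe sets differed there by 0.08 to 0.21, and none of the 3 tested passed.

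Fabp5, the epidermal fatty acid-binding protein, was the 1 gene of the 9 whose lead lay below its control in the knockdown. Its lead 1416021_a_at read 14.51, 14.55 and 14.55 in shSRA 3T3-L1, against 14.62, 14.56 and 14.65 in shControl 3T3-L1, and its second probe set, 1416022_at, 13.82, 13.90 and 13.84 in shSRA, against 14.04, 14.03 and 14.04 in shControl. Neither pair of groups overlapped, as held for 9.37% of all probe sets on the array. The differences of -0.07 and -0.18 were not tested. In ST2 the lead read 14.46, 14.59 and 14.54 with SRA, against 14.46, 14.23 and 14.37 in control, and the second 13.81, 13.94 and 13.85 with SRA, against 13.79, 13.47 and 13.64 in control. They differed by 0.18 and 0.24, or 0.12 and 0.16 without control ST2 replicate 2, and the lead overlapped.

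**Figure D4:**
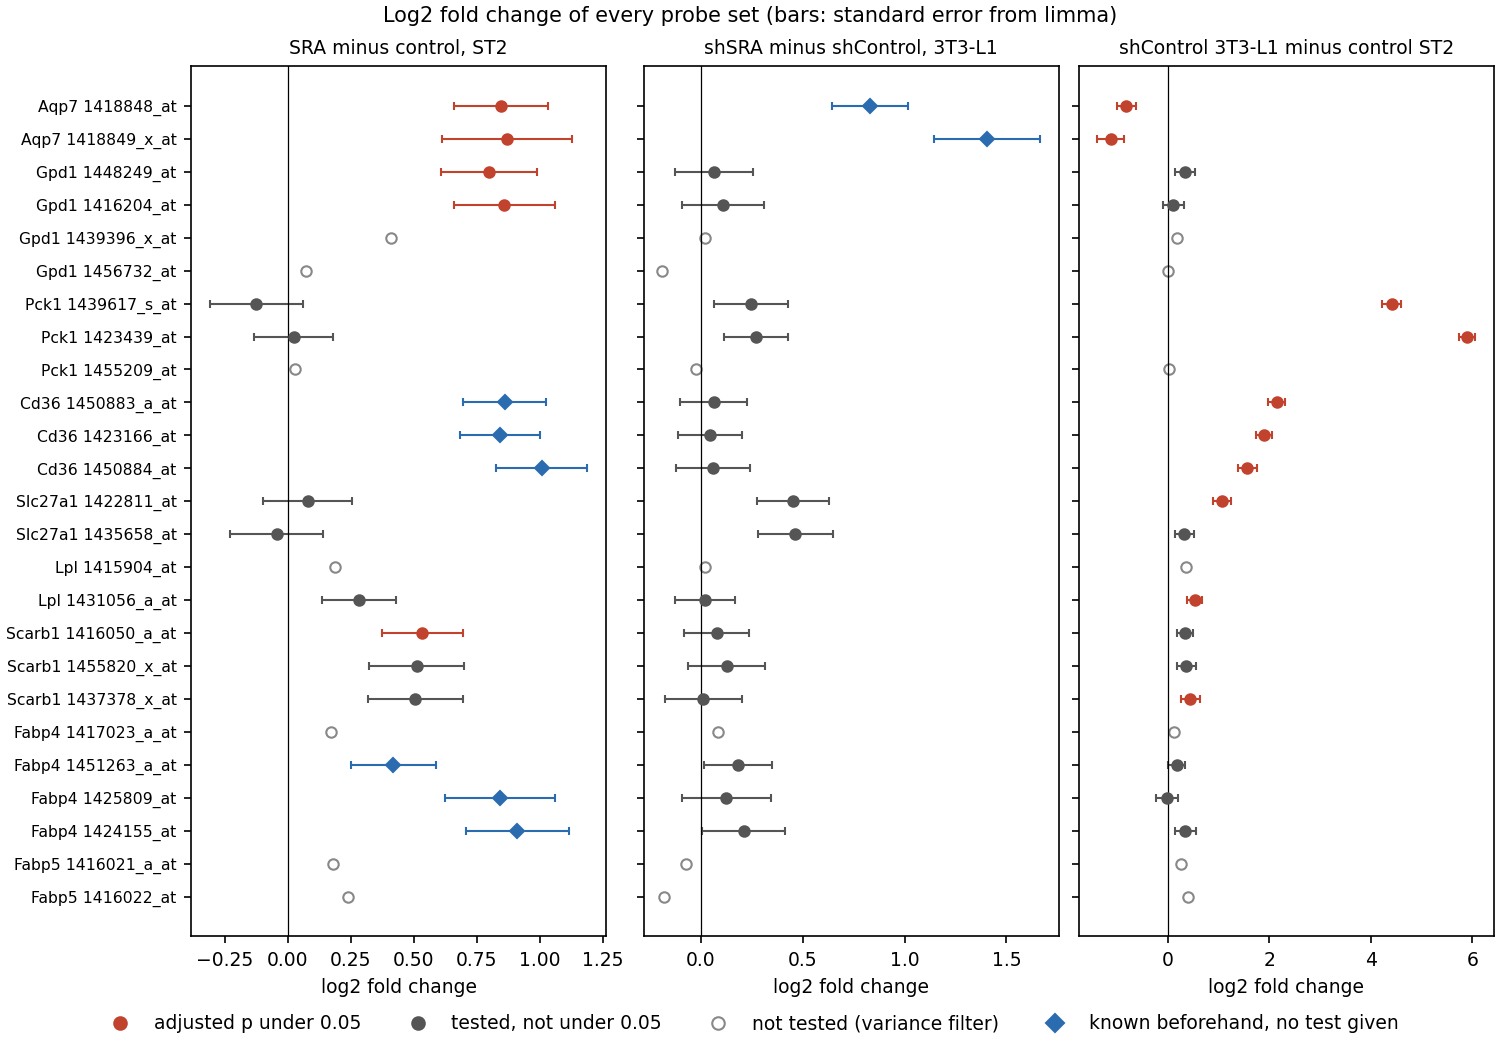
Log2 fold change (horizontal axis, own scale in each panel) of the 25 probe sets (vertical axis) for SRA minus control in ST2, shSRA minus shControl in 3T3-L1 and shControl 3T3-L1 minus control ST2, with standard errors from limma for tested probe sets. Red marks an adjusted p under 0.05, grey a tested probe set above it, open circles those not tested and blue diamonds the values known when the genes were chosen, for which no test is given, such as Aqp7 in the knockdown at 0.83 and 1.41.

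Of the 6 tested leads 4 were called between the controls of the lines and of the 18 tested probe sets 10, near the share of 63.6% among all tested probe sets. Pck1, Cd36 and Slc27a1 were higher and Aqp7 lower in shControl 3T3-L1. The Aqp7 and Cd36 calls rest in part on arrays whose values were known beforehand, as given above. The tested Gpd1 probe sets differed by 0.34 and 0.11 and those of Fabp4 by -0.01 to 0.34, and none passed. The call of 1 Scarb1 probe set, 1437378_x_at (0.44, limma adjusted p = 0.0489), ended in 11 of the 12 fits that left out 1 array.

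The other genes of these pathways were taken from 4 lists with 68 entries, of which 63 were measured and 43 varied enough to be tested. In ST2 5 of the 43 tested (11.6%) were called, 3 higher and 2 lower in SRA ST2, where 7.98% of all tested probe sets were. The lists were drawn up with earlier results of these data known, so these shares are a description. Among the 22 measured genes of fatty acid transport, binding and activation, Acot2, a mitochondrial acyl-CoA thioesterase, was higher by 0.68 (limma adjusted p = 0.0143) and Acsm3, a medium-chain acyl-CoA synthetase, was lower (-1.03, limma adjusted p = 0.0158), a call that ended without control ST2 replicate 2 (limma adjusted p = 0.0695). Among the 19 partners of lipoprotein lipase and lipoprotein receptors, Lmf1, which matures the lipase, was higher by 0.63 (limma adjusted p = 0.0273), Abca1, which exports cholesterol, by 0.65 (limma adjusted p = 0.00911), and Lrp1, an endocytic receptor of remnant particles, was lower (-1.08, limma adjusted p = 0.000352). None of the 12 genes of glycerol transport and glycerol 3-phosphate supply (9 tested) or of the 10 nuclear receptors and factors (8 tested) was called. Pparg itself differed by 0.41 and did not pass, at mean log2 values of 12.05 in SRA ST2 and 11.64 in control ST2, and differed by 0.17 without control ST2 replicate 2. Without that array Acot2 differed by 0.59, Lmf1 by 0.42, Abca1 by 0.59, Lrp1 by -1.23 and Acsm3 by -0.96. In the knockdown 0 of the 43 tested were called by limma. An unadjusted p under 0.05 was reached by 5 of them and by 533 of all 19068 tested probe sets. With the replicate numbers as blocks in both lines 1, Apoc3, was called (0.74, limma adjusted p = 0.0183), where 0.53% of all tested probe sets were. Blocks in 3T3-L1 alone called 0. The medians of the 4 lists lay between 0.05 and 0.14 in ST2 (0.05 and 0.16 without control ST2 replicate 2) and between -0.01 and 0.09 in the knockdown.

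Between the controls 29 of the 43 tested (67.4%) were called, close to the 63.6% of all tested probe sets, and the values of named genes are given as a description. In 3T3-L1 Gk5, annotated as a glycerol kinase, was higher by 2.63 and Gpam, which adds the first acyl chain to glycerol 3-phosphate, by 1.47, while Pdk4, which restrains pyruvate oxidation, was lower (-1.60). Gpat4, another acyltransferase of this step, was higher by 0.59. Of the fatty acid list Acsl3, which activates long-chain fatty acids, was higher by 1.37, Acot2 by 0.70 and Cav1, the coat protein of caveolae, by 0.64, and Cavin1, its partner, was lower (-0.73). Apoc1 and Vldlr, a lipoprotein component and a lipoprotein receptor, showed the widest differences of the lists, 7.45 and 5.31 higher, Abcg1, a sterol exporter, was higher by 3.07, and Lrp1 was lower (-2.37). Ppargc1a, a coactivator of PPARγ that also drives Pck1 in liver, was higher by 3.68, Pparg by 1.03, Rxra by 0.81 and Nr3c1, the glucocorticoid receptor, by 0.57. Apoc1, Vldlr and Ppargc1a averaged 6.36, 4.575 and 4.65 in control ST2, low values that make their differences inexact.

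The genes most like Aqp7 were ranked by the root mean square difference of log2 values from its lead probe set over the 12 arrays, after the mean of each line was subtracted. Aqp7 itself varied by 0.46 on this measure, and its second probe set differed from the lead by 0.28. Of 8189 genes Acacb, the acetyl-CoA carboxylase at mitochondria, was the closest with 0.24, followed by Crls1, the cardiolipin synthase, also 0.24, and by Mapk1ip1, Cutc and Mtus1 with 0.24, 0.24 and 0.25. Their log2 fold changes were 0.44 to 0.63 in ST2 and 0.29 to 0.49 in the knockdown. Of the members Gpd1 ranked 77, Cd36 100, Scarb1 235, Slc27a1 380 and Pck1 3896. The ranking is a description of these arrays and shares their scaling.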

How the data were processed

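Expression in the 12 samples was measured on Affymetrix whole-genome mouse arrays, 1 array per sample. The deposited values are log2 expression values, 1 per probe set and array, which the authors made by robust multi-array average (RMA): background correction, quantile normalization to one distribution and a summary over the probes. RMA makes the arrays' distributions alike, so a change of most transcripts in one direction would be removed. The submitters' processing notes name affy, RMA and limma. Software versions were not given in the sources used.

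From there on, values were computed with limma 3.58.1 (R 4.3.3). Following the filter in the study's methods, a probe set was tested if its variance across the 12 arrays exceeded 0.05 (19068 of 45101). A linear model with 4 group means took all arrays, with moderated tests by eBayes and Benjamini-Hochberg adjustment over all tested probe sets for each of 3 comparisons alone, at 0.05. Members not past the filter have values and no p. Gene names came from the platform annotation (34958 probe sets with 1 symbol, 932 with several, 9211 with none). Named genes were all members, Sra1, up to 4 called genes of each pathway list and comparison by size, and the 5 genes closest to Aqp7. Slc2a4, Pdgfra, Apoc3, Cd14, Cd68 and the Pparg values in ST2 were named after their values were seen. The members and the 8 gene lists were chosen with earlier results of these data known.

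The labels give the groups the same replicate numbers. Deviations from the group mean of same-numbered arrays correlated at 0.587, 0.586 and 0.382 in 3T3-L1 and at 0.039, 0.268 and 0.527 in ST2. In 3T3-L1 the numbers were taken as pairs for the same-numbered differences and the block fit, but not in the main test. In ST2 they were not taken as pairs. In the knockdown, the fit with the replicate number as a block is given for Pck1, Slc27a1 and the counts, and where it changes a call of a tested value. In ST2 its counts are given in the closing section alone. The fit was tested on simulated data, with 200 of 19068 probe sets changed in 1 comparison. A log2 change of 0.5 was recovered in 0% of these in either SRA comparison. A change of 1 was recovered in 81.5% (ST2) and 82.5% (knockdown). A change of 2 was recovered in 98.5% and 100%. Alternatives were the block, no filter, own arrays, nested F classification, a second quantile normalization, array weights, limma trend, other probe sets and each array left out. The number of arrays limits the precision. Promoter windows came from RefSeq (GRCm38.p6).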

Additional observations from a re-analysis of the deposited data

How the results depend on the processing

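No lead's called difference changed sign under the alternatives run (the replicate block, no variance filter, each comparison's own 6 arrays, the nested F classification, a second quantile normalization, array weights, limma trend, other choices of probe set, each array left out, and arrays centred on their bright probe sets). Unless stated, the counts here cover all members, those known beforehand to differ included, and support nothing about them. Of 130 refitted lead values in ST2, 13 lost the call, and between the controls 9 of 124 gained one. Without a single array, the ST2 comparison called 2 to 4 of the leads (4 with all arrays), 4 to 12 of the member probe sets (10) and 2 to 7 of the pathway genes (5). The lowest counts of 2, 4 and 2 came without SRA ST2 replicate 2. Counts of the knockdown's members with Aqp7 are not given here, since they would test the values known beforehand.

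When replicate numbers were blocks, the called pathway genes numbered 10 in ST2 and 1 in the knockdown, where 0.53% of all tested probe sets were called. Leaving out Aqp7, 0 member probe sets were called in the knockdown under this block. In ST2 same-numbered arrays are not taken as pairs. Leaving out Cd36 and Fabp4, 7 of the 12 tested member probe sets were called there under the block, against 5 in the main fit. This adds 2 of Scarb1 (adjusted p = 0.0217 and 0.0273 from limma). The pathway genes called in ST2 were 2 with the comparison's own 6 arrays, 8 after a second quantile normalization and 20 with array weights. Array weights called 16 of the member probe sets between the controls, where the equal-weight fit called 10. The share of all tested probe sets called is not given here for most of these settings. These counts are therefore not read as results about the genes, and the cause of the changes was not tested. Centring on bright probe sets and the block within 3T3-L1 alone were chosen after seeing the data. That centring moved the median log2 fold change of all tested probe sets by -0.08 in ST2, -0.03 in the knockdown and -0.09 between the controls. Precision is limited by 3 arrays a group, and the brightest probe sets, those of Lpl, Fabp4 and Fabp5, lie close to the top of the scale.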
